A study of Rattus norvegicus with 12 samples.

Results

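Chemokines are small secreted proteins that direct the movement of leukocytes through G protein-coupled receptors. They are sorted by the spacing of their first cysteines into CC, CXC and CX3C types, and many of their genes are switched on when lipopolysaccharide (LPS) from Gram-negative bacteria is sensed through Toll-like receptor 4. In blood, chemokine transcripts come from lymphocytes, monocytes, granulocytes and platelets. The genes described here are Ccl5, Ccl6, Ccl9, Cx3cl1, Cxcl3, Cxcl11, Cxcl12 and Cxcl13. They were chosen by symbol in the platform annotation, by a rule that uses no measured value but was written with earlier results of these data known. All 8 were found, on 9 of the 7200 probes, among 3939 genes named by 1 symbol. Cxcl12 had 2 probes and every other gene had 1.

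The study hybridised total RNA of LPS-treated rats against control RNA on 2-colour arrays, and the series title gives the source as blood. The groups were 3 rats labelled 2 h after LPS (rats 1, 2 and 3) and 3 labelled 6 h (rats 2, 4 and 6), and each time had its own control pool. The labels give no strain, sex, age, LPS dose or route, and do not say how the pools were made or whether the rats numbered 2 at both times are 1 animal. Each rat had 2 arrays, called fluor, with the control pool in channel 1 and the treated rat in channel 2, and flip, with the channels exchanged. Values are log2 ratios, so 1 unit is a doubling and 0 is the level of the pool. Both arrays of a rat were averaged, giving 3 replicate rats at each time (n = 3). With 1 pool per time, a test of a mean against 0 leaves out the spread between control animals. Any difference between the 2 pools enters a comparison of 6 h with 2 h. Blood is a mixture of cells, so fewer cells of a type and less RNA per cell cannot be told apart. Ratios carry no level, so the labelled tissue could not be checked against marker levels, and the number of arrays limits the precision.

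A value above 0 is taken to mean more RNA in the treated rat than in the pool. That reading is not settled, because neither the labels nor the table state it. Its basis, chosen after seeing the data, is that the LPS-induced genes Il1b, Il1r2, Irf1, Zfp36 and Lcn2 lay above 0 on 12 of 12 arrays, fluor and flip alike. Of other genes of this kind, 10 arrays were above 0 for Sod2, 8 for Tnf and 3 for Nfkbia. Over all 7200 probes, Pearson's r between the orientations ranged from -0.23 to 0.25 within rats, a description with no test. It lay below 0 in 2 h rat 3 (-0.23) and 6 h rat 6 (-0.047). Agreement between the arrays of a rat was therefore weak over all probes and does not settle the reading. Genes were tested with limma over all 3939 genes, and genes passed at a p under 0.05 after Benjamini-Hochberg adjustment. "Rose" and "fell" are used only past it. With the flip arrays multiplied by -1, the other reading, 814 genes were higher and 647 lower at 6 h, against 327 and 422 as deposited. At 2 h the counts were 283 and 276, against 368 and 387. The times differ in which reading gives more calls, so these counts do not settle the direction either.

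Promoter sequences of RefSeq (rat assembly GRCr8, from 250 bases before to 50 after the annotated start) were found for 6 of the 8 genes. They are shown because Ccl6 and Ccl9, CC chemokine genes of chromosome 10, carry related promoters, while their ratios lay on opposite sides of 0 at 2 h. In a local alignment of the 2 windows, 102 of 139 columns were identical (73.4%), with 2 gap columns. The aligned stretch ran from 158 to 22 bases before the annotated start of Ccl6, at chr10:68883388-68883524 on the minus strand. In Ccl9 it ran from 89 bases before the annotated start to 50 after it, where the window ended, and the bases before the start lie at chr10:68868878-68868966 on the minus strand. Cxcl11 (chr14:15973608-15973727, plus strand) and Cx3cl1 (chr19:10242821-10242940, minus strand) are shown over the 120 bases before the start. Capitals mark matches to a kappaB-like motif (GGG, any 3 bases, then TTCC) and to the TATA box letters TATAAA, each searched on both strands. In these genes no kappaB-like match overlaps a TATA match. In Ccl9 a TTTATA and a TATAAA, which begin 38 and 40 bases after the annotated start, overlap each other.
Ccl6: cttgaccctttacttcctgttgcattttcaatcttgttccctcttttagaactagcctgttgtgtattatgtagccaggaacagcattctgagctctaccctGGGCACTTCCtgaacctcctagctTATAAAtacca
Ccl9: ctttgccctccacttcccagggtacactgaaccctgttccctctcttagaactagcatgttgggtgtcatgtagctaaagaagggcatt
Cxcl11: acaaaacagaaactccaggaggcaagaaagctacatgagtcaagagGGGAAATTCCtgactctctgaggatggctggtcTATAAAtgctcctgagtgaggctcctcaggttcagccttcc
Cx3cl1: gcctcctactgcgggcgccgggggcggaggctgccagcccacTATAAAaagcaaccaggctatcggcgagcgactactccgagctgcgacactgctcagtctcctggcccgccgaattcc

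The kappaB-like letters were in the windows of Ccl6, Ccl9 and Cxcl11, and in 5.37% of all 33469 windows. In Ccl6 the match GGGCACTTCC began 56 bases before the start. In Ccl9 the match GGGGACTTCC began 15 bases after the annotated start, in the aligned stretch, and a second match lay on the other strand 106 bases before it. In Cxcl11 the match GGGAAATTCC began 74 bases before the start. TATAAA was in the windows of Ccl6, Ccl9, Cx3cl1, Cxcl11 and Cxcl13, and in 14.2% of all windows. An interferon response-like motif (GAAA, any 2 bases, then GAAA) was in 3.92% of all windows, and these letters were not in the windows of the 6 genes. Such matches describe letters and were not tested as binding sites.

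At 2 h, 4 of the 8 chemokine genes passed the threshold, 2 higher (Ccl6 and Cx3cl1) and 2 lower (Ccl5 and Ccl9) than the pool. Among all genes tested, the share that passed at 2 h was 19.2%, with 9.34% higher and 9.82% lower. At 6 h, 2 genes passed, Ccl5 and Ccl9, both lower, against 19.0% of all genes (8.30% higher and 10.7% lower). Cxcl3, Cxcl11, Cxcl12 and Cxcl13 passed at neither time. The median log2 ratio of the 8 genes was 0.027 at 2 h and 0.067 at 6 h, against -0.0070 and 0.0069 for all genes. The median size, without regard to sign, was 0.21 at 2 h and 0.12 at 6 h, against 0.073 and 0.074 for all genes.

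**Figure D1:**
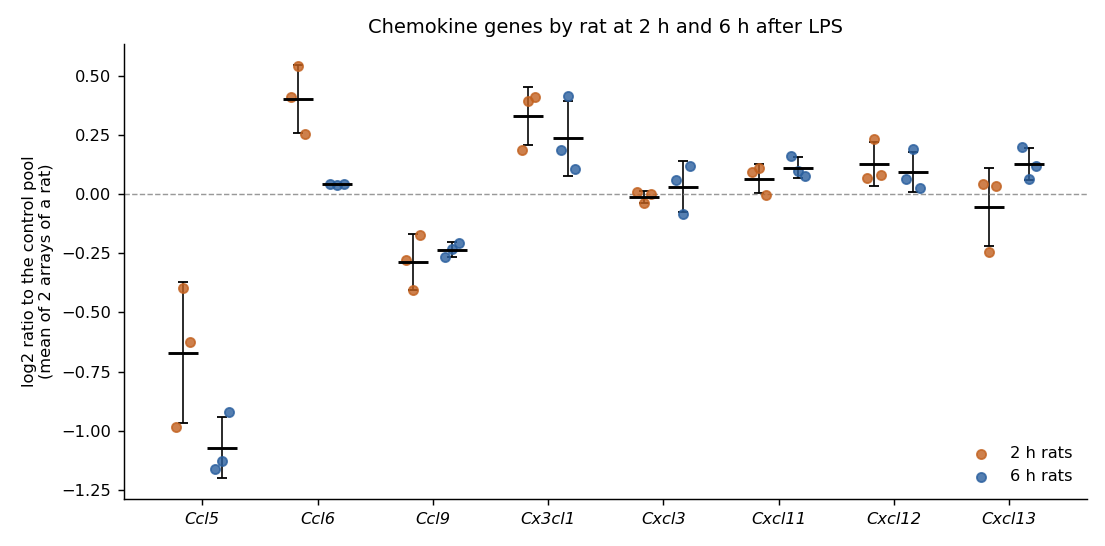
Log2 ratio to the control pool (vertical axis) of the 8 chemokine genes (horizontal axis) at 2 h and 6 h after LPS. Points are rats (mean of 2 arrays), black lines the mean and bars the standard deviation over 3 rats; all rats lie below 0 for Ccl5 and Ccl9 and above 0 for Ccl6 and Cx3cl1, and Ccl6 at 6 h lies close to 0.

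Ccl5 encodes RANTES, a CC chemokine of T cells, natural killer cells and platelets that attracts T cells and monocytes. Its log2 ratios at 2 h were -0.84 (fluor) and -1.13 (flip) in rat 1, -0.14 and -0.65 in rat 2, and -0.50 and -0.75 in rat 3. At 6 h they were -1.17 and -1.16 in rat 2, -0.64 and -1.62 in rat 4, and -0.68 and -1.17 in rat 6. All 12 arrays lay below 0, as did those of 6.37% of all genes. Rat 2 at 2 h was the least changed, and rat 1 at 2 h (-0.99) lay among the 6 h rats (-1.16 to -0.92), so the times overlapped.

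The mean of Ccl5 fell to -0.67 ± 0.30 (SD, n = 3; limma adjusted p = 0.00623) at 2 h, which is 62.8% of the pool. At 6 h it fell to -1.07 ± 0.13 (limma adjusted p = 0.00078), which is 47.6% of the pool. Of the 3939 genes it had the 32nd lowest mean at 2 h and the 8th lowest at 6 h, and it was the most changed of the 8 chemokine genes at both times. The difference between the times, -0.40 (SE 0.15, 95% interval -0.75 to -0.06), did not pass (unadjusted p = 0.0287 and limma adjusted p = 0.280). After quantile normalization the mean at 2 h was -1.20, a larger fall on that scale. The flip array was lower than the fluor array in 5 of 6 rats, with a gap of 0.99 between the 2 arrays of 6 h rat 4. The median gap over all genes and rats was 0.14.

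Ccl6, a rodent CC chemokine of myeloid cells, had ratios at 2 h of 0.45 (fluor) and 0.37 (flip) in rat 1, 0.53 and 0.55 in rat 2, and 0.48 and 0.025 in rat 3. At 6 h its arrays lay between -0.011 and 0.094, and the rat means were 0.041, 0.039 and 0.042. The flip array of 2 h rat 3 was the 1 low array at 2 h, and it lay within the range of the 6 h arrays. Averaged by rat the times did not overlap, which held for 21.7% of all genes and, of the chemokine genes, for Ccl6 and Cxcl13.

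Ccl6 rose to 0.40 ± 0.14 at 2 h (SD, n = 3; 1.32-fold; limma adjusted p = 0.00312), the 91st highest mean of all genes. By 6 h the mean was 0.041 ± 0.0019 (limma adjusted p = 0.600, 95% interval -0.081 to 0.16). The difference of -0.36 (SE 0.073) between the times had an unadjusted p of 0.00161 in limma and an adjusted p of 0.0828, which misses the threshold. Without 2 h rat 3 it passed (-0.44, limma adjusted p = 0.0419), and over all its alternatives as deposited the adjusted p ran from 0.0321 to 0.335. On the flip arrays alone the rise at 2 h missed the threshold (0.31, limma adjusted p = 0.0704).

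Ccl9, a CC chemokine of macrophages and other myeloid cells, had ratios at 2 h of -0.39 (fluor) and -0.17 (flip) in rat 1, -0.43 and -0.39 in rat 2, and -0.22 and -0.13 in rat 3. At 6 h they were -0.32 and -0.22 in rat 2, -0.35 and -0.11 in rat 4, and -0.27 and -0.14 in rat 6. All 12 arrays lay below 0, with fluor below flip in 6 of 6 rats, and the rats of the times overlapped. The size was small, and more even over rats at 6 h than at 2 h. Ccl9 fell to -0.29 ± 0.12 at 2 h (82.0% of the pool; limma adjusted p = 0.00695) and to -0.24 ± 0.03 at 6 h (85.0% of the pool; limma adjusted p = 0.0136). The difference between the times was 0.05 (SE 0.064, 95% interval -0.10 to 0.20; limma adjusted p = 0.771).

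The fall of Ccl9 at 6 h missed the threshold when any 1 of the 6 h rats was left out. It was -0.22 without rat 2 (limma adjusted p = 0.0909), -0.24 without rat 4 (0.0608) and -0.25 without rat 6 (0.0535). It also missed it on the flip arrays alone (-0.16, limma adjusted p = 0.0722). The ratio of Ccl6 lay above that of Ccl9 on 12 of 12 arrays. By rat the gap was 0.43 to 0.95 at 2 h and 0.25 to 0.31 at 6 h. The pair was chosen for its promoters and for its opposite signs at 2 h, so the gap at 2 h restates that choice, and neither gap was tested.

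Cx3cl1 encodes fractalkine, a membrane-anchored CX3C chemokine of endothelium and neurons whose receptor is carried by monocytes and cytotoxic lymphocytes. Its ratios at 2 h were 0.34 (fluor) and 0.035 (flip) in rat 1, 0.38 and 0.41 in rat 2, and 0.63 and 0.19 in rat 3. At 6 h they were 0.32 and 0.049 in rat 2, 0.57 and 0.25 in rat 4, and 0.20 and 0.011 in rat 6. All 12 arrays lay above 0, as did those of 3.88% of all genes, and fluor lay above flip in 5 of 6 rats. The rats of the times overlapped.

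Cx3cl1 rose to 0.33 ± 0.12 at 2 h (SD, n = 3; 1.26-fold; limma adjusted p = 0.0186). The call ended without 2 h rat 2 (0.30, limma adjusted p = 0.104), without 2 h rat 3 (0.29, 0.0727) and on the flip arrays alone (0.21, 0.134). The 6 h mean was 0.23 ± 0.16 (limma adjusted p = 0.0527, 95% interval 0.075 to 0.39), which misses the threshold. It passed at 6 h in 7 of 18 alternatives that kept the direction as deposited, among them without 2 h rat 1 (limma adjusted p = 0.0481) and on the fluor arrays alone (0.37, 0.0206). Without 6 h rat 4 its mean was 0.15 (limma adjusted p = 0.213). The difference between the times was -0.09 (SE 0.095, 95% interval -0.32 to 0.13; limma adjusted p = 0.707).

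**Figure D2:**
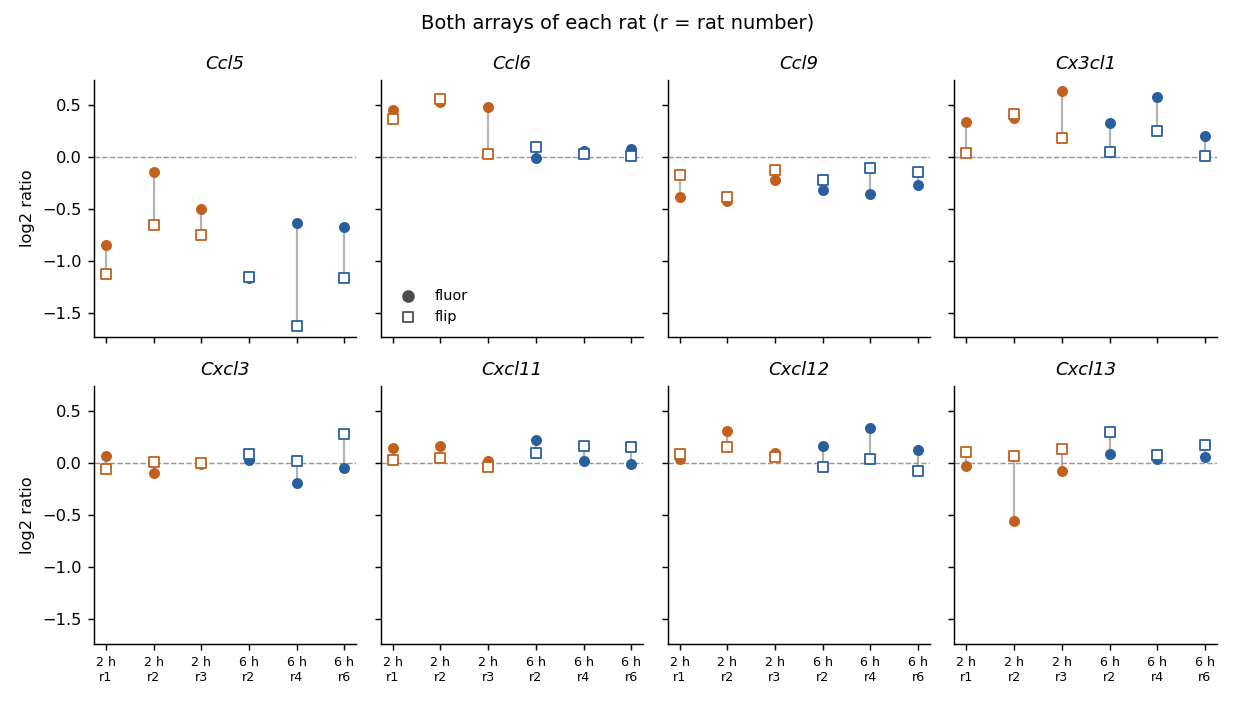
Log2 ratio (vertical axis) on the fluor (filled circles) and flip (open squares) arrays of each rat (horizontal axis: time and rat number) for the 8 chemokine genes, with a grey line joining the arrays of a rat. Ccl5 lies below 0 on all arrays with its widest pair in 6 h rat 4, and the low flip array of Ccl6 in 2 h rat 3 and the low fluor array of Cxcl13 in 2 h rat 2 stand apart.

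None of the 4 CXC genes passed at either time. Cxcl3, a neutrophil attractant acting through Cxcr2, had rat means of 0.0075, -0.040 and -0.0013 at 2 h and 0.060, -0.087 and 0.12 at 6 h. Its means were -0.011 ± 0.025 (limma adjusted p = 0.867) and 0.03 ± 0.11 (0.626). The 95% intervals ran from -0.11 to 0.089 and from -0.069 to 0.13, and 7 of 12 arrays lay above 0. Neither sign nor size was resolved.

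Cxcl11, an interferon-inducible ligand of Cxcr3 on activated T cells, lay above 0 on 10 of 12 arrays. Its rat means were 0.091, 0.11 and -0.0055 at 2 h and 0.16, 0.097 and 0.076 at 6 h, overlapping. The means were 0.06 ± 0.06 at 2 h (limma adjusted p = 0.218, 95% interval -0.017 to 0.15) and 0.11 ± 0.04 at 6 h (0.0640, 0.030 to 0.19). The 6 h value passed on the flip arrays alone (0.14, limma adjusted p = 0.0256).

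Cxcl12, the CXC chemokine that holds leukocytes and progenitors in bone marrow through Cxcr4, had rat means of 0.067, 0.23 and 0.078 at 2 h and 0.063, 0.19 and 0.026 at 6 h. All 6 rats lay above 0 and the times overlapped. The means were 0.13 ± 0.09 at 2 h (limma adjusted p = 0.0993, 95% interval 0.016 to 0.24) and 0.09 ± 0.09 at 6 h (0.195, -0.018 to 0.20). Both probes were above 0 on average. The probe numbered 4745 gave 0.19 and 0.10 at the 2 times and the probe numbered 5979 gave 0.07 and 0.09. At 2 h the gene passed after scaling (0.13, limma adjusted p = 0.0350) and after quantile normalization (0.14, 0.0409). The 6 h mean was 0.21 on the fluor arrays (limma adjusted p = 0.0481) and at -0.026 on the flip arrays (0.651), so its sign there differed with the orientation.

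Cxcl13, which draws B cells into follicles through Cxcr5, had rat means of 0.044, -0.25 and 0.034 at 2 h and 0.20, 0.062 and 0.12 at 6 h. The 6 h rats lay above the 2 h rats, narrowly. The low value of 2 h rat 2 came from its fluor array (-0.56), while its flip array stood at 0.067. The mean at 2 h was -0.06 ± 0.16 (limma adjusted p = 0.533, 95% interval -0.20 to 0.088) and turned to 0.039 without that rat, to 0.014 after scaling and to 0.012 after quantile normalization. At 6 h it was 0.13 ± 0.07 (limma adjusted p = 0.179, 95% interval -0.018 to 0.27), and it passed without 2 h rat 2 (limma adjusted p = 0.0456) and on the flip arrays alone (0.19, 0.0268). The difference between the times was 0.18 (SE 0.086, 95% interval -0.02 to 0.38; limma adjusted p = 0.402).

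In the direct comparison of 6 h with 2 h, 0 of the 8 genes passed limma's threshold, against 0.508% of all genes (20 of 3939). Without adjustment, 2 had a limma p under 0.05, Ccl5 and Ccl6, with the values given above. When all arrays entered with a term for orientation and rats as random blocks, Ccl6 passed (limma adjusted p = 0.0321). That fit uses arrays, with 1 correlation between the arrays of a rat shared by all genes. In it 64 genes rose and 67 fell between the times, against 13 and 7 in the main fit. The order of the means from high to low was Ccl6, Cx3cl1, Cxcl12, Cxcl11, Cxcl3, Cxcl13, Ccl9 and Ccl5 at 2 h. At 6 h it was Cx3cl1, Cxcl13, Cxcl11, Cxcl12, Ccl6, Cxcl3, Ccl9 and Ccl5. At 2 h the ranges over rats of every pair of neighbours in that order overlapped. Within rats, Cx3cl1 lay above Cxcl12 and Cxcl13 above Ccl9 in 3 of 3, and the other steps changed sign between rats. At 6 h Ccl9 lay below Cxcl3 in all rats and Ccl5 below Ccl9, while the other neighbours overlapped and changed sign between rats.

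**Figure D3:**
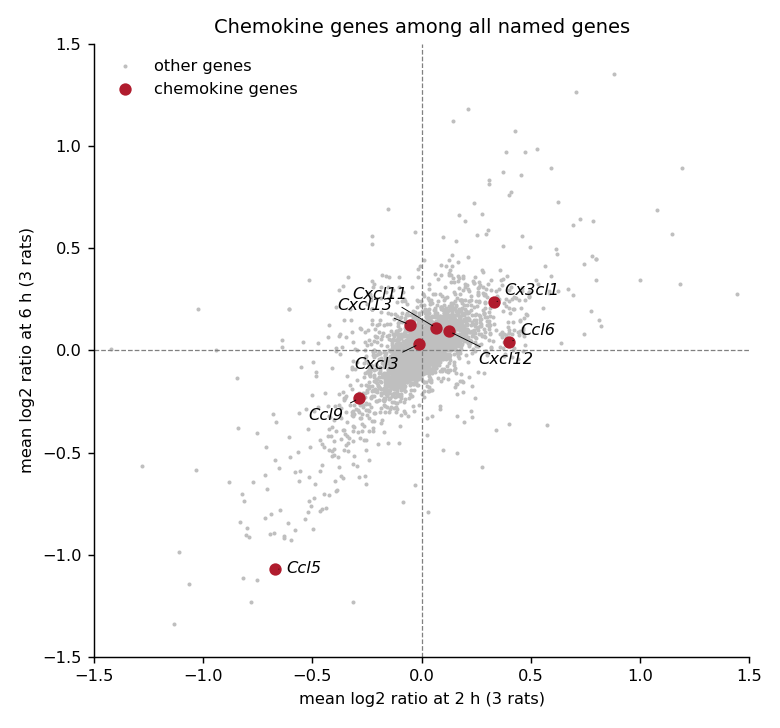
Mean log2 ratio at 2 h (horizontal axis) and at 6 h (vertical axis), each over 3 rats, for the named genes (grey) and the 8 chemokine genes (red); 10 genes lie beyond the axis limits of 1.5. Ccl5 lies at the low edge of the cloud at both times, Ccl6 is displaced at 2 h alone, and the CXC genes lie nearer its centre than Ccl5.

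With the flip arrays multiplied by -1, the other reading of the direction, the values keep only what differs between the 2 arrays of a rat. Ccl5 then stood at 0.17 at 2 h (limma adjusted p = 0.177) and at 0.25 at 6 h (0.0502), the opposite sign. Ccl6 stood at 0.087 at 2 h, Ccl9 at -0.06 and -0.08, and Cx3cl1 at 0.12 and 0.13, none past the threshold. Cxcl12 at 6 h (0.12, limma adjusted p = 0.0141) was the single call. The calls of Ccl5, Ccl6, Ccl9 and Cx3cl1 therefore rest on the reading as deposited, and so does the sign of Ccl5. Directions of the other genes are given on that reading too.

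The genes with the patterns most like those of the 4 called members were found by the root mean square distance over 6 rat means. For Ccl5 they were the ribosomal protein gene Rps3 (distance 0.20, with means of -0.63 at 2 h and -0.92 at 6 h), Eva1b (0.22) and the antiproliferative gene Btg1 (0.23). For Ccl6 they were the phosphodiesterase Pde4b (0.072, with means of 0.45 and 0.095), the transaldolase Taldo1 (0.094) and the cytoskeletal gene Zyx (0.096). For Ccl9 they were the signalosome subunit Cops7a (0.033), Washc1 (0.040) and the proteasome subunit Psma4 (0.057). For Cx3cl1 they were the phosphatase subunit Ppp1cb (0.066), Tox4 (0.071) and the adducin Add2 (0.078). These distances are descriptions of 6 values each.

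Of 28 other chemokine ligands listed, 1 was measured, Pf4, the platelet CXC chemokine stored in alpha granules. Its rat means were 0.57, 0.37 and 0.074 at 2 h and -0.79, -0.14 and -0.24 at 6 h, so the times lay on opposite sides of 0. The rats of the times did not overlap in 21.7% of all genes. The Pf4 means of 0.34 ± 0.25 (limma adjusted p = 0.122) and -0.39 ± 0.35 (0.0851) did not pass. The difference of -0.73 (SE 0.19, 95% interval -1.18 to -0.27) did not pass either (limma adjusted p = 0.153). With all arrays and rats as random blocks all of these passed (limma adjusted p = 0.0336 at 2 h, 0.0184 at 6 h and 0.0262 for the difference). Calls over all genes also increased in that fit. The fluor and flip means of Pf4 were 0.54 and 0.13 at 2 h and -0.14 and -0.64 at 6 h. With the flip arrays multiplied by -1, Pf4 stood at 0.20 at 2 h (limma adjusted p = 0.0219) and at 0.25 at 6 h (0.00545). The opposite signs of Pf4 at the 2 times therefore rest on the reading as deposited. Gp9, the other measured platelet gene of 14, rose at 2 h (0.18 ± 0.11, limma adjusted p = 0.0404) and stood at 0.022 at 6 h. Ccl5, which platelets also carry, lay below 0 at both times.

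Of 24 chemokine receptors listed, 3 were measured: Ackr3, Cxcr4 and Ccr7. Ackr3, the scavenging receptor of Cxcl11 and Cxcl12, lay above 0 on 12 of 12 arrays. It rose to 0.23 ± 0.07 at 2 h (limma adjusted p = 0.00585) and to 0.34 ± 0.04 at 6 h (0.00113), and passed in all 18 alternatives that kept the direction. With the flip arrays multiplied by -1 it stood at -0.049 and 0.057. Cxcr4, the signalling receptor of Cxcl12, stood at -0.13 ± 0.10 at 2 h (limma adjusted p = 0.0796) and -0.07 ± 0.05 at 6 h (0.270). Its fluor arrays averaged -0.25 and -0.22 and its flip arrays -0.0059 and 0.081. Ccr7, which guides naive T cells and dendritic cells to lymph nodes, stood at -0.16 ± 0.15 at 2 h (limma adjusted p = 0.0868) and fell to -0.21 ± 0.06 at 6 h (0.0451). The call ended without any 1 of the 6 h rats (-0.24 without rat 2, -0.17 without rat 4, -0.21 without rat 6) and without 2 h rat 3 (-0.21, limma adjusted p = 0.0556). It also ended on the fluor arrays alone (-0.22, limma adjusted p = 0.131) and with all probes fitted together (-0.21, 0.0643).

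**Figure D4:**
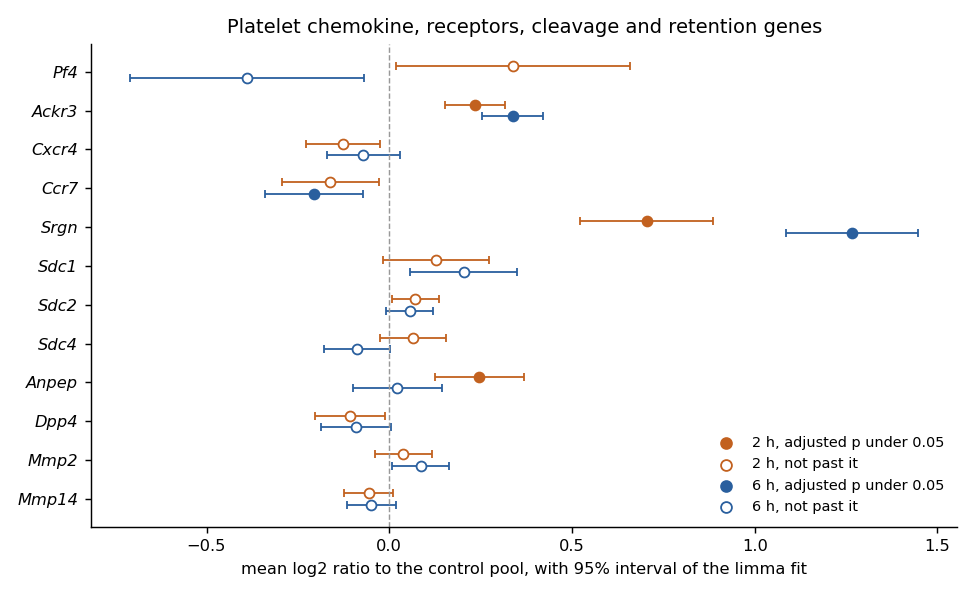
Mean log2 ratio to the control pool with the 95% interval of the limma fit (horizontal axis) at 2 h and 6 h for Pf4, the measured receptors and the genes of chemokine cleavage and retention (vertical axis); filled points have adjusted p under 0.05. Srgn and Ackr3 are higher at both times, Anpep at 2 h and Ccr7 lower at 6 h, and Pf4 lies on opposite sides of 0.

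Genes that retain or cut chemokines were a list of 16, of which 8 were measured. At 2 h 2 rose and 0 fell, and at 6 h 1 rose and 0 fell, with medians of 0.068 and 0.039. These counts stand beside 19.2% of all genes called at 2 h and 19.0% at 6 h. Srgn, the granule proteoglycan serglycin that binds chemokines such as Pf4, rose at both times, to 0.70 ± 0.16 at 2 h (limma adjusted p = 0.00161) and 1.27 ± 0.17 at 6 h (0.000133). The difference of 0.56 (SE 0.11) between the times missed the threshold (limma adjusted p = 0.0807) and passed with all arrays and rats as random blocks (0.0200). Anpep, an aminopeptidase that trims peptides, rose at 2 h (0.25 ± 0.12, limma adjusted p = 0.0194), a call that ended without 2 h rat 2 (0.18, 0.0748), and stood at 0.022 at 6 h. Dpp4, the dipeptidyl peptidase that truncates Ccl5, Cxcl11 and Cxcl12, lay below 0 on 12 of 12 arrays at -0.11 ± 0.09 and -0.09 ± 0.05 (limma adjusted p = 0.103 and 0.149). Sdc1, Sdc2, Sdc4, Mmp2 and Mmp14 passed at neither time. After scaling 3 rose at 2 h and 2 at 6 h.

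Of 36 genes of receptor signalling, 17 were measured, and 1 was called at 2 h and 5 at 6 h, beside 19.2% and 19.0% of all genes. At 2 h 1 fell, Rgs2, which shortens G protein signals (-0.26 ± 0.03, limma adjusted p = 0.00170); it stood at 0.00090 at 6 h. At 6 h 3 rose and 2 fell. Rhoa (0.24 ± 0.07, limma adjusted p = 0.00915) and the receptor kinase Grk5 (0.16 ± 0.10, 0.0341) rose. The small GTPase Rac1 (-0.20 ± 0.06, 0.00633) and the exchange factor Vav1 (-0.15 ± 0.03, 0.0327) fell. The fluor and flip means were 0.40 and 0.078 for Rhoa and 0.023 and 0.31 for Grk5. They were -0.14 and -0.25 for Rac1 and -0.22 and -0.082 for Vav1. With the flip arrays multiplied by -1, Rhoa stood at 0.16 (limma adjusted p = 0.00860) and Grk5 at -0.14 (0.0229), the opposite sign. Rac1 and Vav1 did not pass there. Ptk2, the focal adhesion kinase, rose to 1.08 ± 0.30 (limma adjusted p = 0.0180), but its fluor arrays averaged -0.70 and its flip arrays 2.85, so the orientations disagreed. All 5 calls at 6 h ended without 6 h rat 2 (Rhoa 0.21, Grk5 0.13, Rac1 -0.17, Vav1 -0.14 and Ptk2 1.03). The list median was -0.045 at 2 h and 0.00090 at 6 h.

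Calls among markers at 2 h ran from 1 of 9 (endothelial and stromal) to 2 of 2 (B cell), beside 19.2% of all genes. At 6 h they ran from 0 of 2 (platelet) to 2 of 3 (monocyte and macrophage), beside 19.0%. Apart from the lowest list at each time, every list had a larger share called than all genes. The part of these markers in the results was not tested. T cell genes (5 of 18 measured) had 2 falls at 2 h and 3 at 6 h, and their summed log2 ratio by rat lay between -1.52 and -1.28 at 2 h and between -1.76 and -0.82 at 6 h. Cd3d stood at -0.39 ± 0.11 and -0.69 ± 0.18. Ccr7, described above among the receptors, was among the falls at 6 h. Tcf7 (-0.55 ± 0.46 and -0.083 ± 0.62) and Cd5 (-0.056 ± 0.11 and -0.082 ± 0.06) passed at neither time. Tcf7 ran from -0.70 to 0.55 over the 6 h rats. Natural killer and cytotoxic genes (5 of 15) had 2 rises at each time (sums 1.18 to 1.66, then 1.66 to 2.31), but list medians of 0.0095 and -0.024. Gzmc (1.17 and 1.87) made up most of the sum, and Gzmk (-0.14 and -0.075) and Ctsw (-0.041 and -0.024) lay below 0. Monocyte and macrophage genes (3 of 13) had 1 and 2 falls (-0.87 to -0.45, then -0.88 to -0.33). B cell genes (2 of 11) had 2 and 1 falls (-0.65 to -0.47, then -0.86 to -0.77). Neutrophil genes (5 of 19) had 3 rises and 1 fall, then 3 rises (3.75 to 4.53, then 3.18 to 4.44). S100a9 (2.98 and 2.70) made up most of that sum, and S100a8 (-0.083 and -0.053) and Hdc (-0.15 and -0.034) lay below 0. Il1r2 and Lcn2, which also rose, were among the genes chosen to read the direction, so their rises restate that choice. Platelet genes (2 of 14) had 1 rise and then 0 calls (0.14 to 0.76, then -0.84 to -0.05). Erythroid genes (9 of 17) had 4 rises and 1 fall, then 1 rise and 2 falls. Endothelial and stromal genes (9 of 14) had 1 fall, then 1 rise and 3 falls.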

How the data were processed

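Total RNA of 6 rats given LPS was measured on 12 arrays of 7200 probes. The authors deposited 1 value per probe and array, read from its range and from the labels as a log2 ratio between channels. What dyes, scanner, background correction and normalization were used is not given in the sources used here. Medians of the arrays lay between -0.020 and 0.0083 and the table had 0 missing values. No value of the 9 chemokine probes was one of the repeated values that 242 to 298 probes of an array shared.

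Gene names come from the platform annotation, updated by identifier with a GRCr8 table. Of 7200 probes, 4190 had 1 symbol, 46 several and 2964 none, and names rest on that annotation. Probes of a gene and the 2 arrays of a rat were averaged. Rat means of 3939 genes were fitted with limma 3.58.1 in R 4.3.3 (lmFit, eBayes), both times in 1 model of group means, with Benjamini-Hochberg adjustment over all genes. Each time was tested against 0 and the times against each other. P-values measure the spread between rats. The fit was tested on simulated data.

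The members and lists were chosen with earlier results of these data known. The 8 genes are named with array values or the rat mean for every rat. Other ligands, receptors, and cleavage or retention genes could be named, signalling genes and markers where past the threshold, and 3 nearest genes for each called member. The markers Gzmk, Ctsw and S100a8, which did not pass, were also named as genes below 0 in lists with sums above 0. Tcf7 and Cd5, which did not pass either, were named to show the spread within the T cell list. Alternatives changed the direction, arrays used, centring, scaling, quantile normalization, repeated values, probe or gene fit, samples per fit, random block, variance moderation and rats left out. Subtraction of neighbouring probes (5 on each side) and the values of Pf4 were added after seeing the data. Promoters were aligned with Biopython 1.88.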

Additional observations from a re-analysis of the deposited data

Results flagged for a closer look

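Each set of 6 arrays at a time was searched for an array far from the others, for the 8 chemokine genes and Pf4 (18 sets). Chance marks about 1 in 20 sets, and the 2 arrays of a rat are not independent. In Cxcl13 at 2 h the fluor array of rat 2 (-0.56) was separated from the next array by 0.70 of the range, above the critical value of 0.625. In Ccl6 at 2 h the flip array of rat 3 (0.025) was separated by 0.65 of the range.

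Pf4 was flagged because all 2 h rats lay above 0 and all 6 h rats below it. The rats of the times did not overlap in 21.7% of all genes, and the share with opposite signs was not counted. The difference of Pf4 between the times was -0.73, with an unadjusted p of 0.00675 in limma and an adjusted p of 0.153. By array, 5 of 6 lay above 0 at 2 h and 1 of 6 at 6 h. With the flip arrays multiplied by -1, the means of Pf4 lay above 0 at both times (0.20 and 0.25).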

How the results depend on the processing

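The count of called chemokine genes at 2 h (4 of 8) was 0 with the flip arrays multiplied by -1 and 2 on the flip arrays alone, and 3 to 4 with 1 rat left out. At 6 h (2 of 8) it was 1 with the flip arrays multiplied by -1, 4 on the fluor arrays alone and 4 with all arrays, an orientation term and the rat as random block, and 1 to 3 with 1 rat left out. For 6 h minus 2 h (0 of 8) it was 1 with that random block and 0 to 1 with 1 rat left out. Multiplying the flip arrays by -1 turned Ccl5 to 0.17 at 2 h and 0.25 at 6 h and Pf4 at 6 h to 0.25, and the cause was not tested. Pf4 at 2 h stood at 0.20 there, and Pf4 passed at both times (limma adjusted p = 0.0219 and 0.00545). As deposited, Ccl5 passed in 18 of 18 alternatives at both times (adjusted p up to 0.0436 and 0.00990), Ccl9 in 18 at 2 h and 14 at 6 h, Ccl6 in 17 and Cx3cl1 in 15 at 2 h, each with 1 sign throughout. Of all genes, 113 rose and 210 fell at 2 h without 2 h rat 2, against 368 and 387, and 101 rose and 205 fell at 6 h without 6 h rat 2, against 327 and 422. Multiplying the flip arrays by -1 gave 814 and 647 at 6 h, and the random block gave 64 and 67 between the times, against 13 and 7. At 6 h calls over all genes also increased on the fluor arrays alone (585 and 617) and with the random block (542 and 565). Cxcl12 has 2 probes and therefore no value in the fit of all probes, and 6 h minus 2 h has none where each time was fitted on its own. No paired analysis was possible because the labels of the times share 1 rat number. Intensities over background were not at hand, so dim probes could not be told from unchanged ones.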
